A study of Mus musculus with 2 samples.

Results

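Dendritic cells of mouse KPC pancreatic tumors were described from single-cell RNA sequencing of 2 tumor libraries, in which 106 of 20428 kept cells met a marker rule for this cell type. A cell was taken as dendritic when it held at least 2 unique molecular identifiers (UMIs, each 1 counted RNA molecule) of Flt3, Xcr1, Clec9a, Cd209a, Siglech, Ccl22 and Ccr7 together, and at least 20 of the MHC class II genes H2-Aa, H2-Ab1 and Cd74. It also had to hold at most 3 UMIs of the macrophage complement genes C1qa, C1qb and C1qc, and none of the T cell receptor genes Cd3d, Cd3e and Cd3g or of the B cell genes Cd79a and Cd79b. Of the kept cells, 52 of 8739 met the rule in the library labelled FLOX, which is 0.595% (95% Clopper-Pearson interval 0.445 to 0.780%). In the library labelled MCT1-KO, 54 of 11689 met it, which is 0.462% (0.347 to 0.602%), and the intervals overlapped. Of kept cells with a UMI of the leukocyte gene Ptprc, 1.42% in FLOX (1.04 to 1.89%) and 1.59% in MCT1-KO (1.16 to 2.13%) met it, the other order.

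Dendritic cells take up antigen, load its peptides on MHC molecules and carry them to lymph nodes, where they prime T cells. Conventional type 1 dendritic cells, marked by XCR1 and CLEC9A and dependent on the transcription factors IRF8 and BATF3, take up dead cells and cross-present their antigens to CD8 T cells. Type 2 cells, marked in mice by CD209a among others, mainly prime CD4 T cells, plasmacytoid cells, marked by Siglec-H, secrete type I interferon, and mature migratory cells express the chemokine receptor CCR7, the actin-bundling protein fascin and the chemokine CCL22. In pancreatic tumors conventional dendritic cells are known to be scarce.

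Both libraries were made from tumors grown by orthotopic injection of KPC cells, a mouse pancreatic cancer line, into the pancreas of male mice, whose strain background and age the sources used here do not give for these animals. FLOX mice carry MCT1 fl/fl, the floxed gene for the lactate transporter MCT1 (Slc16a1), and MCT1-KO mice carry Col1a2-CreERT2, a Cre recombinase induced by tamoxifen. Whether FLOX mice lack this Cre was not stated. The Col1a2 promoter is aimed at pancreatic stellate cells and other fibroblast-like cells and not at dendritic cells, so the dendritic cells are not the cells in which the gene was meant to be lost. There was 1 library per group, and whether it held 1 mouse or several was not stated. The comparison between libraries therefore has no replicate check, and effects of genotype, mouse and library preparation cannot be told apart. The study names tamoxifen or corn oil before tumor injection without stating which the FLOX mice received, so an effect of the drug cannot be told apart either. All intervals below cover counting error only.

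The targeted gene was not lower in the library labelled MCT1-KO by these counts. In cells chosen by collagen UMIs (Col1a1, Col1a2 and Col3a1, at least 20, with no Ptprc), Slc16a1 was counted 52 times in FLOX and 76 times in MCT1-KO, that is 27.1 and 36.9 CPM (UMIs of the gene per 1000000 UMIs of the same cells), a ratio of 1.36 (0.947 to 1.98). In the dendritic cells Slc16a1 had 5 and 11 UMIs, 8.12 and 21.6 CPM, with a ratio of 2.66 (0.852 to 9.77). In the other kept cells Slc16a1 stood at 26.3 and 37.7 CPM, a ratio of 1.43 (1.35 to 1.52), higher in MCT1-KO. The collagen rule sets no limit on keratin and can take in tumor cells, and UMIs do not show which exons a transcript holds. Loss of the gene in stellate cells was therefore not tested by these counts. The second group is named by its label throughout.

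Dendritic cells were deeper than the other kept cells. They held a median of 11215.5 UMIs in FLOX (2031 to 26198) and 7841 in MCT1-KO (1183 to 27252), against 4023 and 3678 in the other kept cells, and 33 and 19 of them held over 10000 UMIs. Because the rule asks for a minimum number of UMIs, it takes in deep cells more easily. Its upper limits on C1q, Cd3 and Cd79 UMIs work the other way, and thinning loosens them. With every cell thinned to 2000 UMIs and shallower cells left out (3056 and 4563 kept cells), 42 of 5683 FLOX cells met the rule, 0.739% (0.533 to 0.998%), and 19 of 7126 MCT1-KO cells, 0.267% (0.161 to 0.416%), with intervals that did not overlap. Of these, 27 in FLOX and 19 in MCT1-KO had met it before thinning. The other FLOX cells entered as the upper limits loosened, so the lack of overlap does not compare the cells described here at equal depth. Kept cells of the libraries shared 59 barcodes, and no barcode was dendritic in both (0). By a score from simulated doublets, 1 dendritic cell in FLOX and 3 in MCT1-KO were among the 8% most doublet-like cells of their library.

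The label was checked with genes the rule did not use. Zbtb46, a transcription factor restricted among leukocytes largely to conventional dendritic cells and their precursors, had a UMI in 48.1% of FLOX cells (34.0 to 62.4%) and 42.6% of MCT1-KO cells (29.2 to 56.8%). T cells, which should lack it, had a Zbtb46 UMI in 4.83% and 5.32%, at median depths of 3618 and 2809 UMIs. The leukocyte gene Ptprc had a UMI in 88.5% and 81.5% of dendritic cells. Macrophage genes were not absent, since Apoe had a UMI in 52 and 42 of the cells. Adgre1 (F4/80) had 3 and 1 UMIs, Csf1r (the CSF1 receptor) 6 and 5, and Mrc1 (the mannose receptor CD206) 1 and 1. The 12-gene macrophage list, of which 2 genes were at 0 in MCT1-KO, held 940 and 543 UMIs, 1527 and 1067 CPM, against 39687 and 40504 CPM in cells with at least 10 C1q UMIs (called C1q macrophages here) and 15300 and 11222 CPM in barcodes of 10 to 100 UMIs, which hold free RNA.

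A minority of the cells fit the label less well, more of them in MCT1-KO. Cells without a Ptprc UMI numbered 6 in FLOX and 10 in MCT1-KO, and cells with at least 10 keratin or collagen UMIs, genes of tumor cells and fibroblasts, numbered 2 and 8. Cells with Ptprc and under 10 such UMIs numbered 45 and 41. The 8 tumor and epithelial markers summed to 271 and 786 CPM in dendritic cells, with at least 1 UMI in 36 and 35 of them, and the 8 fibroblast markers to 523 and 621 CPM. Marker sums were also lower in MCT1-KO: the median of the 7 marker genes was 14 UMIs per cell in FLOX and 4 in MCT1-KO, and 3 and 15 cells sat at the minimum of 2. Among these 18 cells at the minimum, 16.7% had a Zbtb46 UMI and 61.1% had Ptprc. Of the 114 cells just outside, with 1 marker UMI and the other conditions met, 9.65% had Zbtb46, 21.1% Ptprc and 79.8% the keratin gene Krt8. Of the 43 cells with 10 or more marker UMIs, 60.5% had Zbtb46.

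Fewer cells stood near the class II limit. Just inside the class II limit (20 to 39 UMIs) stood 10 cells, of which 4 had Zbtb46, and just outside it (10 to 19 UMIs) 13 cells with 30.8%. Just inside the C1q limit, with 1 to 3 UMIs, stood most of the cells, 47 in FLOX and 24 in MCT1-KO, of which 49.3% had Zbtb46. Just outside it, with 4 to 6 UMIs, stood 14 FLOX cells and 1 MCT1-KO cell, of which 26.7% had Zbtb46. C1q UMIs were spread through the libraries unevenly. No C1q UMI was found in 33.2% of T cells in FLOX and 64.8% in MCT1-KO, and in 5 and 30 dendritic cells, while C1q made up 0.367% and 0.248% of the free RNA. The part of free RNA in the C1q limit was not tested beyond the alternatives with other limits given in the closing section.

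**Figure D1:**
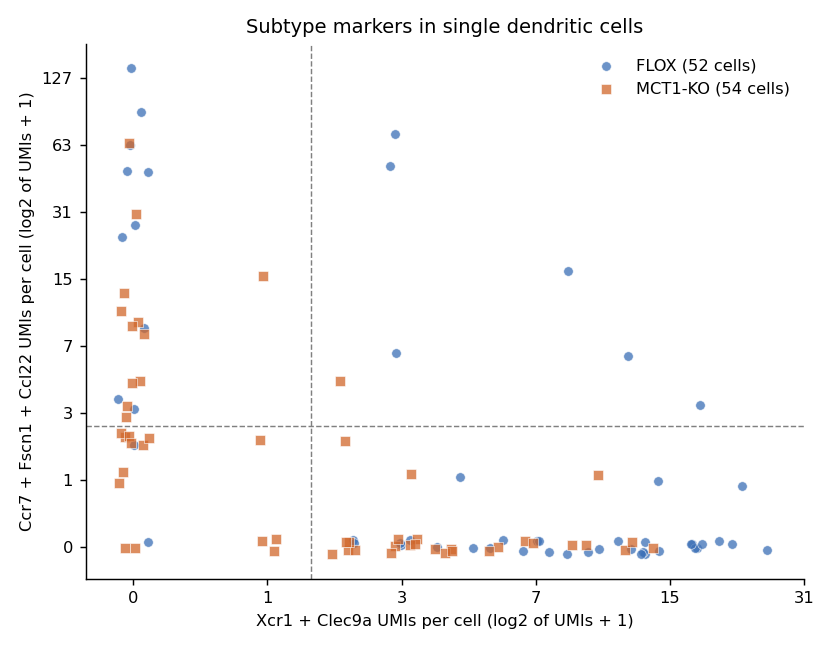
Each point is 1 dendritic cell, with its Xcr1 + Clec9a UMIs on the x axis and its Ccr7 + Fscn1 + Ccl22 UMIs on the y axis (both spaced by log2 of UMIs + 1 and jittered; dashed lines are the subtype limits). Of the cells, 34 in FLOX and 27 in MCT1-KO lie past the x limit alone and 10 and 12 past the y limit alone, while 2 and 14 lie below both.

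Sequence around the listed RefSeq start is shown for 4 of the genes that define these cells, because the results turn on their levels. Xcr1 stands for type 1 cells, Zbtb46 for conventional dendritic cells as a whole and Ccl22 for mature cells. Ccl17 is a chemokine whose level differed between the type 1 cells of the libraries. Each window runs from 250 bases before to 50 bases after the RefSeq start on GRCm38.p6, 5′ to 3′ on the gene's strand. Xcr1 is at chr9:123861980-123862279 (minus strand), Zbtb46 at chr2:181424339-181424638 (minus), Ccl22 at chr8:94745434-94745733 (plus) and Ccl17 at chr8:94810203-94810502 (plus). Capitals mark a motif of the following search.
Xcr1: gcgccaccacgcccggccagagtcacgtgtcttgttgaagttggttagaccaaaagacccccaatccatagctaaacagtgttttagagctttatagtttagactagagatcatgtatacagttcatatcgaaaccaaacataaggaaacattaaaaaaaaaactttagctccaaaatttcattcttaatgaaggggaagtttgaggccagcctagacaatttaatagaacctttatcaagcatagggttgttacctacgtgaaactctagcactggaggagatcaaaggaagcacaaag
Zbtb46: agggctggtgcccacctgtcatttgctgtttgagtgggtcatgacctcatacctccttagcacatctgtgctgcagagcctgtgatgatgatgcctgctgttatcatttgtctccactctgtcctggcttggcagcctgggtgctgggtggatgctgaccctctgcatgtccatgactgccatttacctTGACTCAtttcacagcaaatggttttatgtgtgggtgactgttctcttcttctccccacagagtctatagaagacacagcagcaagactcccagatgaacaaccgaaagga
Ccl22: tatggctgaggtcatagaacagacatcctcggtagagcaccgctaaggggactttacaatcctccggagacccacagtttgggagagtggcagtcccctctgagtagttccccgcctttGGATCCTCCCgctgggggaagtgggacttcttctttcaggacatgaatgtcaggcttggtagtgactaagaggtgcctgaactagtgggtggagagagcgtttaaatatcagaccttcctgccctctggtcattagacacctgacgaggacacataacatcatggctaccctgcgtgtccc
Ccl17: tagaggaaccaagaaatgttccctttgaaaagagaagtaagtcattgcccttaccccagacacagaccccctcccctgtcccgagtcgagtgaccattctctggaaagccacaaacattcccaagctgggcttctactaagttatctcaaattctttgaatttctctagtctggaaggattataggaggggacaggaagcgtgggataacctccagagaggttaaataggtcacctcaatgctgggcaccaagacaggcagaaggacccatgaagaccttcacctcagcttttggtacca

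Motifs for 3 kinds of factor known in dendritic cells were searched on both strands. They were the ETS-IRF composite element bound by PU.1 with IRF8 or IRF4 (GGAA, then any 2 bases, then GAAA), the AP-1 site TGANTCA and the NF-kB site (GGGA, then any 4 bases, then CC), and no match in these windows overlapped another. Of 20 dendritic genes looked for, 16 had a window in the RefSeq table, and 4 of them held a motif. The Ccl22 window held an NF-kB match on the minus strand that starts at -131 from the listed start, and the Zbtb46 window an AP-1 match at -61. The bases just before the listed Zbtb46 start have the form of a splice acceptor. That start may therefore be an exon boundary and not the place where transcription begins. The windows of Irf8 (NF-kB at -58 and 11) and Cd209a (ETS-IRF at -9) held the others, and the Xcr1 and Ccl17 windows held none. Of all 32544 windows, 2.73% held the ETS-IRF element, 7.79% the AP-1 site and 20.8% the NF-kB site. A match in letters is not a bound site.

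Type 1 was the most numerous class in both libraries before thinning. Cells with at least 2 UMIs of Xcr1 (the receptor for the chemokine XCL1) and Clec9a (a receptor for actin exposed by dead cells), and past no other subtype limit, numbered 34 of 52 in FLOX, 65.4% (50.9 to 78.0%), and 27 of 54 in MCT1-KO (36.1 to 63.9%). Cells with at least 3 UMIs of Ccr7, Fscn1 and Ccl22 and past no other limit, called mature here, numbered 10, or 19.2% (9.63 to 32.5%), and 12, or 22.2% (12 to 35.6%). Of the dendritic cells of either library none (0) reached 2 UMIs of Cd209a or of Siglech, where a count of 0 allows up to 5.77% and 5.56% of cells by a limit of 3 cells. This limits cells with 2 UMIs of these markers and not type 2 cells. Cd209a had only 6 and 4 UMIs in all kept cells, so a type 2 cell could hardly be named. Among kept cells that were not dendritic by the rule, 1 in FLOX had at least 2 Cd209a UMIs, and 3 in each library had at least 2 Siglech UMIs. These subtypes were defined by the genes that chose the cells, so their shares are a description. After thinning to 2000 UMIs type 1 cells were 69.0% in FLOX (52.9 to 82.4%) and 26.3% of the 19 cells left in MCT1-KO (9.15 to 51.2%).

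The remaining cells differed in number between libraries. More than 1 limit was passed by 6 cells in FLOX (11.5%) and 1 in MCT1-KO (1.85%). Below every limit stood 2 cells in FLOX, 3.85% (0.469 to 13.2%), and 14 in MCT1-KO, 25.9% (15 to 39.7%), with intervals that did not overlap. The limits are fixed UMI counts, and median depth was 11215.5 UMIs in FLOX and 7841 in MCT1-KO dendritic cells. These shares are therefore not compared at equal depth. Of the 14 MCT1-KO cells below every limit 10 had Ptprc, 4 had Zbtb46, 1 had Batf3, 7 had Krt8 and 7 had Ccl17, and their median marker sum was 2 UMIs. The 2 Cd209a UMIs of MCT1-KO dendritic cells lay in these 14 cells, as did their Irf4 UMIs outside mature cells. Their identity rests on fewer molecules than that of the other cells.

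**Figure D2:**
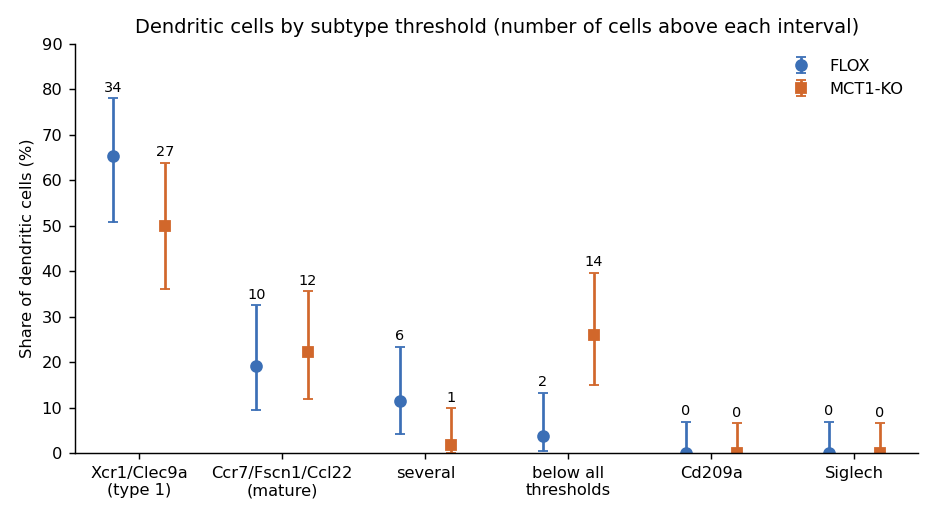
Share of the dendritic cells of each library (%, y axis) in each subtype class (x axis), with 95% Clopper-Pearson intervals and the number of cells above each. The type 1 and mature intervals overlap between libraries, and those of the cells below every limit (2 in FLOX, 14 in MCT1-KO) do not. The limits are fixed UMI counts, and the libraries differed in depth.

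The marker genes chose the dendritic cells, so their shares there are a description, and T cells give the background. Xcr1 had a UMI in 71.2% of FLOX dendritic cells against 1.21% of T cells, and in 53.7% against 0.253% in MCT1-KO. Clec9a was found in 71.2% against 0.805% in FLOX and 42.6% of dendritic cells in MCT1-KO, where no T cell of 395 held it, which by the same limit allows up to 0.759% of T cells with a UMI and says nothing of cells that express it below this depth. Flt3, the receptor for the growth factor on which dendritic cells depend, was found in 67.3% against 1.01% in FLOX and in 27 of 54 cells in MCT1-KO, again with no T cell. Ccr7, which T cells of lymph node origin also express, was found in 28.8% against 7.24% in FLOX and 44.4% against 14.7% in MCT1-KO.

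Type 1 and mature markers are genes of the rule, which a cell can meet by either kind, so how often they shared a cell is a description. In FLOX 37 cells held Xcr1 and 37 held Clec9a, 34 of them both, and in MCT1-KO 29 and 23 did, 19 of them both. Xcr1 and Ccr7 were found together in 3 cells of FLOX and 5 of MCT1-KO. Ccr7 and Ccl22 were found in 15 and 15 cells of FLOX, 12 of them both, and in 24 and 10 of MCT1-KO, 9 of them both. Fscn1 was held by 4 of the 24 Ccr7 cells of MCT1-KO and by 7 of the 15 of FLOX. With 1 library each these counts could not be tested.

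Dendritic cells were next set against the other kept cells, most of which held no Ptprc UMI. Genes with at least 50 UMIs in dendritic cells of both libraries together numbered 3042 once the rule genes were left out. Of these, 374 (12.3%) were at least 2-fold higher than in other kept cells in both libraries, and 167 (5.49%) at least 2-fold lower. The median over all 3042 genes, taking the lower ratio of both libraries for each gene, was 0.881. A gene that is high in dendritic cells reaches 50 UMIs more easily, so list counts below are given beside 12.3% as a description.

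The 15 genes with the largest ratios, by the lower of both libraries, were led by Gpr33, an orphan G protein-coupled receptor. It stood at 71.5 CPM in FLOX dendritic cells against 0.413 in the others, a ratio of 173 (104 to 295), and at 49.1 CPM against 0.0247 in MCT1-KO, where the other cells held 2 UMIs and the ratio of 1989 has an interval from 496 to 17325. Bcl2l14 (a BCL2 family member) had 271 CPM in FLOX dendritic cells and 76.6 in MCT1-KO, with ratios of 161 and 129. Gcsam, a signalling protein of germinal centre lymphocytes, had 119 and 82.5 CPM, with ratios of 120 and 1114. The set also held Gpr141b, Scin (an actin-severing protein), Sept3, Plet1, Cldn1 (a tight junction protein), Ffar4 (a fatty acid receptor), Ccl17, Hepacam2, Qpct, Btla, Ryr1 and Itgae.

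Several of these encode surface proteins and secreted factors used by dendritic cells. Plet1, a membrane protein, had 476 and 352 CPM against 5.07 and 1.36 in other cells. Btla, an inhibitory receptor of lymphocytes and dendritic cells, had 201 and 155 CPM, with ratios of 54.7 and 61.6. Itgae, the integrin CD103 that marks migratory type 1 cells, had 198 and 141 CPM, with ratios of 46.5 and 135. Ccl17, a ligand of CCR4 on regulatory and helper T cells, had 754 CPM in FLOX and 2118 in MCT1-KO, with ratios of 72.4 (64.1 to 81.8) and 238 (216 to 261).

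**Figure D3:**
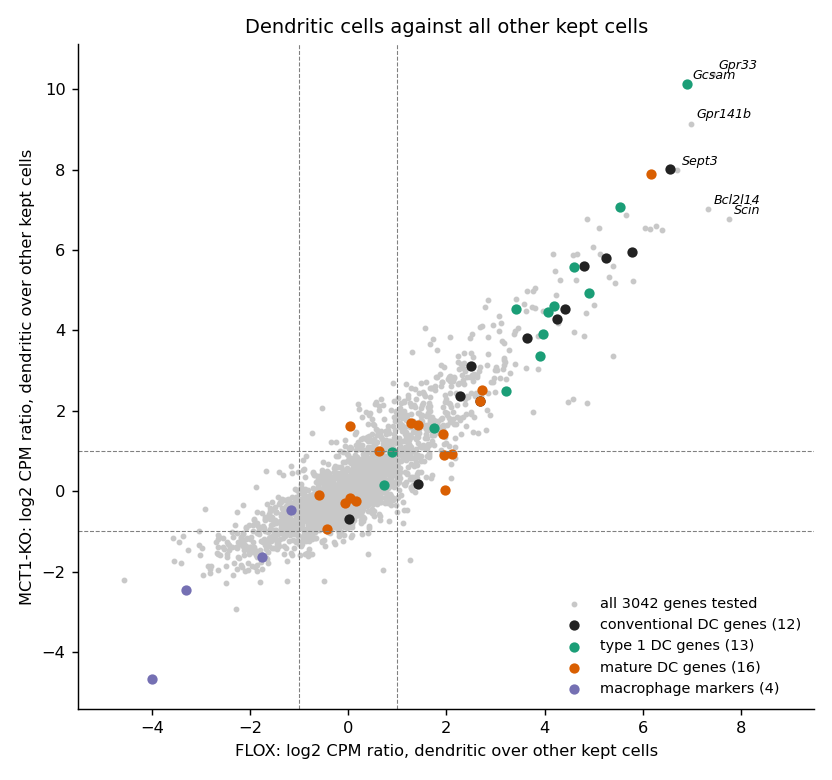
Each point is 1 of the 3042 genes, with its log2 CPM ratio of dendritic over other kept cells in FLOX (x axis) and in MCT1-KO (y axis), and UMI counts under 3 set to 3 (dashed lines mark 2-fold). The conventional and type 1 genes lie mainly in the upper right, where the largest ratios in MCT1-KO are those of Gpr33, Gcsam and Gpr141b, and the 4 macrophage markers lie below 0 in both libraries.

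Transcription factors and core genes of conventional dendritic cells were high in both libraries. Of the 14 genes of the conventional list found in the files, 12 reached 50 UMIs and 10 of them were at least 2-fold higher, with a median of the lower ratio of 15.7. Zbtb46 had 40 UMIs in FLOX and 38 in MCT1-KO, that is 65.0 and 74.7 CPM against 5.24 and 5.36 in other cells, ratios of 12.4 (8.70 to 17.3) and 13.9 (9.72 to 19.4). Cst3, the protease inhibitor cystatin C, had 28593 and 17957 CPM against 1500 and 928, ratios of 19.1 and 19.4. Kit, the stem cell factor receptor, had ratios of 28.1 and 49.0, and Itgax (CD11c) of 5.62 and 8.69.

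The type 1 list followed the same pattern, with 13 of its 16 genes reaching 50 UMIs and 11 of these at least 2-fold higher. Irf8, the lineage factor of type 1 cells, had 1095 CPM in FLOX and 420 in MCT1-KO against 69.6 and 27.8 in other cells, with ratios of 15.7 (14.5 to 17.1) and 15.1 (13.1 to 17.4). Batf3, its partner, had 119 and 80.5 CPM against 11.1 and 3.49, with ratios of 10.7 (8.31 to 13.7) and 23.1 (16.2 to 32.1). Batf3 had a UMI in 59.6% and 38.9% of dendritic cells against 2.41% and 0.506% of T cells.

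Wdfy4, a vesicle protein needed to cross-present cell-associated antigen, had 457 and 395 CPM, with ratios of 24.2 and 47.9. Naaa, a lysosomal amidase, had 994 and 464 CPM (30.1 and 30.6), and Tlr3, the endosomal sensor of double-stranded RNA, 102 and 74.7 CPM (16.8 and 22.1). Cxcr3, the receptor for CXCL9 and CXCL10, had 55.2 and 31.4 CPM, with ratios of 18.2 and 24.2. Cadm1, an adhesion molecule of type 1 cells, was under 2-fold in both libraries (1.85 and 1.97), with 200 and 181 CPM.

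The defining markers of other dendritic lineages had few UMIs, while the type 2 list as a whole held 730 UMIs in FLOX and 901 in MCT1-KO, of which Ifitm1, an interferon-induced membrane protein, made up 146 and 385. Of the 16 type 2 genes, 6 reached 50 UMIs and 3 were at least 2-fold higher, among them Mgl2, a lectin, with 66.6 and 41.3 CPM and ratios of 13.7 and 31.8. Irf4, the factor of type 2 and of mature cells, had 7 UMIs in FLOX and 12 in MCT1-KO, 7 and 6 of them in mature cells. Cd209a had 0 and 2 UMIs in dendritic cells, of 6 and 4 in all kept cells. Of 15 plasmacytoid genes 3 reached 50 UMIs and none of these was higher, 1 was lower, and Siglech had 2 and 1 UMIs in dendritic cells of 29 and 26 in kept cells.

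**Figure D4:**
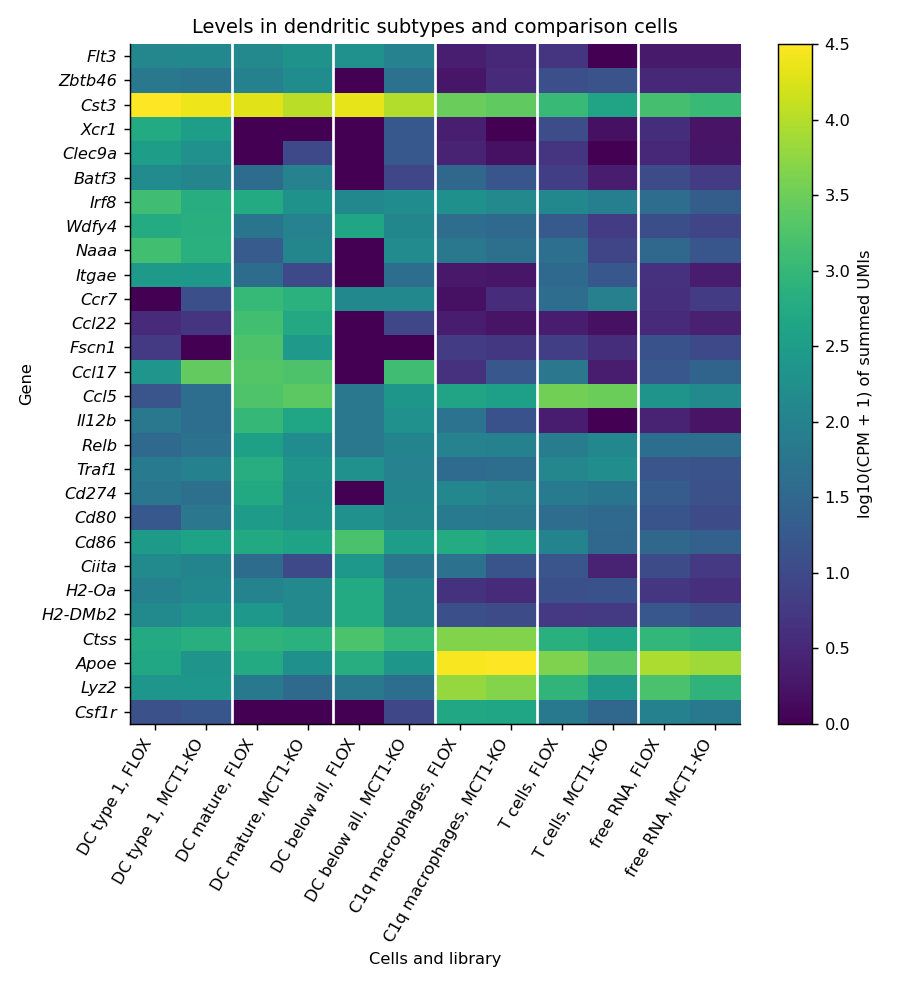
Colour gives log10(CPM + 1) of summed UMIs for 28 genes (y axis) in dendritic subtypes, C1q macrophages, T cells and free RNA of each library (x axis). Type 1 genes are high in type 1 cells, Ccr7, Ccl22, Fscn1 and Il12b in mature cells, and Apoe, Lyz2 and Csf1r in C1q macrophages, while Ccl17 is high in type 1 cells of MCT1-KO but not of FLOX. Mature cells held 107 of 285 dendritic Il12b UMIs in FLOX and 51 of 133 in MCT1-KO, and type 1 cells 26 and 11. The rest lay in other dendritic cells, of which those past several limits are not shown.

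Most class II genes outside the rule were higher in dendritic cells than in other kept cells, but the proteases that prepare their peptides were not. The rule asks for class II UMIs, so the first of these is a description. Of the 15 class II presentation genes, 12 reached 50 UMIs, 9 were at least 2-fold higher and 2 lower. Against C1q macrophages 5 of the 12 were at least 2-fold higher and 3 lower, beside 8.25% and 4.4% of all genes, and the list summed to 11034 and 8851 CPM in dendritic cells and 12411 and 10226 in those macrophages. H2-Oa, a chain of the regulator DO that restrains peptide exchange, had 102 and 124 CPM, with ratios of 31.8 and 67.7, and H2-DMb2, a chain of the exchange factor DM, 166 and 171 CPM (13.4 and 24.2). H2-Eb1, a class II beta chain, had 6762 and 5363 CPM against 1752 and 626, ratios of 3.86 and 8.57. Ciita, the class II transactivator, had ratios of 4.73 and 10.3. The lysosomal proteases Lgmn (0.141 and 0.245 of the level in other cells) and Ctsl (0.123 and 0.334) stood lower in both libraries, and Ctss, cathepsin S, was at 0.502 and 0.963.

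Class I genes were closer to the level of other cells, with 5 of 17 at least 2-fold higher. Psmb9, a subunit of the immunoproteasome, had 760 and 338 CPM (6.43 and 5.46), and Tap1, the peptide transporter, ratios of 4.05 and 3.16. B2m, the shared light chain, was near 1 (0.982 and 1.06).

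Costimulatory genes were higher than in other kept cells but hardly so against macrophages. Of 8 genes of the list with 50 UMIs (18 in the files), 7 were at least 2-fold higher than in other kept cells, and 1 of 8 than in C1q macrophages, where 8.25% of all genes were higher and 4.4% lower. Cd86, a ligand of CD28 and CTLA4, had 372 and 379 CPM, with ratios of 2.03 and 4.96 to other kept cells, and Cd80, its relative, 99.1 and 108 CPM (2.44 and 5.93). Cd40, which receives help from T cells, had ratios of 4.78 and 6.43. Cd274, which encodes PD-L1, had 206 and 92.3 CPM (3.18 and 3.01). Havcr2, the receptor TIM-3, had 174 and 153 CPM, with ratios of 5.85 and 10.1.

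Lineage genes were among the 251 genes higher than in C1q macrophages. Of the type 1 list 11 of 13 and of the conventional list 9 of 12 were at least 2-fold higher in dendritic cells than in C1q macrophages, beside 8.25% of all genes. Against the 18 and 8 cells of a monocyte rule (Ly6c2 and Ccr2) 3 of 12 conventional, 5 of 13 type 1 and 0 of 8 costimulatory genes were at least 2-fold higher in both libraries, beside 2.76% of all genes, and 4.64% were lower. Those cells were few, with 1 and 0 UMIs of Zbtb46. Counts under 3 were set to 3, so a gene at a low level in dendritic cells, such as Zbtb46, could not be called higher. A gene not called against monocytes is therefore not shown to be at a like level in both. Zbtb46 had 0.865 and 2.53 CPM in C1q macrophages, and Ccl17 3.39 and 15.5 CPM. Apoe, an apolipoprotein abundant in macrophages, had 518 and 214 CPM in dendritic cells against 8310 and 5408 in other kept cells, and Lyz2, lysozyme, had ratios of 0.101 and 0.183.

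Of 9 chemokine genes with 50 UMIs, 2 were higher in dendritic cells than in other kept cells and 2 lower, beside 12.3% and 5.49% of all genes. Against C1q macrophages 1 was higher and 6 lower, beside 8.25% and 4.4% of all genes. The list summed to 3397 and 4526 CPM in dendritic cells and 9068 and 9463 in C1q macrophages. Ccl17 was given above, and Cxcl16, the ligand of CXCR6 on effector T cells, had 369 and 289 CPM (2.05 and 3.20). The neutrophil chemokines Cxcl1 (0.204 and 0.131) and Cxcl2 (0.232 and 0.252) were lower than in other kept cells. Il12b, the p40 chain of IL-12 and IL-23, had 463 and 261 CPM against 16.0 and 2.41, with ratios of 29.0 and 109, and 1 cell carried 31.2% of its UMIs in FLOX and 36.1% in MCT1-KO.

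Type 1 cells were set against the other dendritic cells for genes the rule did not use. Of 3018 genes with at least 30 UMIs in type 1 cells, 355 (11.8%) were at least 2-fold higher in the 61 type 1 cells than in the other 45. The filter favours genes that are high in type 1 cells, so the list counts are a description. Of the 12 cell cycle genes that passed it 11 were higher, with a median ratio of 4.31. The tumor (2 of 2) and fibroblast (2 of 2) markers compared were lower in type 1 cells than in the others, beside 4.94% of all genes. Without cells lacking Ptprc or with 10 or more keratin and collagen UMIs, 332 of 2615 genes were higher in type 1 cells. The part of these markers was not tested further. Top2a, the topoisomerase of dividing cells, had 113 UMIs in type 1 cells against 15 in the others, a ratio of 4.88, and Mki67 83 against 25, a ratio of 2.15. By cells, Mki67 had a UMI in 10 of 34 type 1 cells and 4 of 18 other dendritic cells in FLOX, and in 8 of 27 of each in MCT1-KO, against 20.5% and 14.9% of T cells.

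Among the 10 genes with the largest ratio for type 1 cells were Hist1h1d, Eefsec, Cxcr3, March3, Acvrl1, Arsb, March1, Pclaf and Tlr3. Hist1h1d, a histone gene of dividing cells, had 47 UMIs against 1, a ratio of 30.4 (5.20 to 1228). Cxcr3 had 48 against 2, 15.5 (4.08 to 132), and Acvrl1, a receptor of the TGF-beta family, 55 against 3, 11.9 (3.86 to 59.4). March1, the ubiquitin ligase that takes class II and CD86 from the surface of immature dendritic cells, had 57 against 4, 9.23, and Tlr3 94 against 7, 8.70 (4.06 to 22.2). The 13 genes of the type 1 list that could be compared were all at least 2-fold higher, with a median ratio of 4.67, among them Naaa at 5.52, Itgae at 6.74, Wdfy4 at 3.94, Irf8 at 2.86 and Batf3 at 2.56.

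Some genes ran the other way. Il12b had 37 UMIs in type 1 cells against 381 in the others, a ratio of 0.0629, Il1b (the cytokine IL-1 beta) 148 against 698 (0.137) and Cd274 36 against 138 (0.169). The class II sum of the rule had a median of 453 UMIs per cell in FLOX and 315 in MCT1-KO in type 1 cells, and 155.5 and 151.5 in mature cells, at median depths of 11806.5 and 9127 against 8740 and 7720 UMIs.

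The 22 mature cells were set against the other 84 dendritic cells in the same way. Of 983 genes with at least 30 UMIs in them, 170 (17.3%) were at least 2-fold higher than in the others. Of 26 maturation genes in the files 15 reached 30 UMIs in mature cells, a filter that favours genes high there, and 14 of these 15 were higher. Il4i1, an enzyme that breaks down phenylalanine and tryptophan, had 36 UMIs in mature cells against 11, a ratio of 13.5 (6.70 to 29.3). Relb, the NF-kB subunit of maturing dendritic cells, had a ratio of 4.04, Traf1, an adaptor of TNF receptors, of 3.16, and Icam1, the adhesion ligand of LFA-1, of 4.66.

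Genes that act on T cells were among them. Ccl5, a chemokine that attracts T cells, had 462 UMIs in mature cells against 61, a ratio of 31.2 (23.8 to 41.4), but 6 of 10 and 5 of 12 mature cells held it, and 1 cell in each library carried 50.3% and 46.8% of these UMIs. The 4 cytokine genes compared were all higher, with Tnf at 5.59 (47 of its UMIs in FLOX and 6 in MCT1-KO) and Il12b at 2.5. Il12b was held by 4 of 10 and 3 of 12 mature cells, and 1 cell in each library carried 56.1% and 68.6% of its UMIs there. Cd80 was 3.58-fold and Cd274 3.27-fold higher, and Tnfsf9, the 4-1BB ligand, 6.58-fold. Irf8 (0.418) and the class II factor H2-DMa (0.335) were lower. The tumor (2 of 2) and fibroblast (3 of 3) markers compared were higher as well, and 3 of 10 and 6 of 12 mature cells held Krt8, against 22.1% and 18% of T cells. Without cells lacking Ptprc or with 10 or more keratin and collagen UMIs, 7 mature cells were left in each library and 103 of 446 genes were higher. The part of these markers was not tested further.

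Between the libraries 113 genes (3.71% of 3042) were at least 2-fold higher in dendritic cells of MCT1-KO and 146 (4.8%) at least 2-fold lower, around a median ratio of 0.989. Judged by acinar genes, free RNA made up 19.8% of dendritic UMIs in FLOX and 5.75% in MCT1-KO. Acinar genes were only 0.0345% of FLOX free RNA, so the FLOX value rests on few UMIs. The macrophage list given above was too low in FLOX dendritic cells for so large a share, so this estimate depends on the genes used. With it subtracted 265 genes were higher and 204 lower, so which side was larger depended on this step. Most heat shock genes and some interferon, maturation and type 1 genes were lower in MCT1-KO, while Ccl17, S100a4, the summed Il1b UMIs and acinar genes were higher. The difference in depth and subtype mix given above moves with these values, and the values in type 1 cells alone and in free RNA are set beside the ones that matter.

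Acinar genes led the higher side. Prss2 (trypsinogen) had 3 UMIs in FLOX and 59 in MCT1-KO, 4.87 and 116 CPM, a ratio of 23.8 (7.75 to 119), and its ratio in free RNA was 39.1. Ctrb1 (chymotrypsinogen) had 8 and 150 UMIs, a ratio of 22.7 (11.2 to 53.5), against 45.9 in free RNA. All 5 acinar genes compared were higher, and the list of 10 summed to 68.2 and 1053 CPM in dendritic cells and to 0.0345% and 1.83% of free RNA. Of the 10 genes with the largest ratio, 2210010C04Rik, Try5 and Clps are acinar too, and Mgp, Tnc, Cxcl5 and Prkg2 were also among them. Mgp, a matrix protein of fibroblasts, had 76.4 and 548 CPM, a ratio of 7.18 (5.25 to 9.998), and was at 1.24 when cells without Ptprc or with 10 or more keratin or collagen UMIs were left out. Of the MCT1-KO UMIs of Tnc, another matrix protein, 72.1% came from 1 cell.

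Ccl17 differed between the libraries in type 1 cells. It had 464 UMIs in FLOX and 1078 in MCT1-KO, 754 and 2118 CPM, a ratio of 2.81 (2.52 to 3.14). In type 1 cells 13 of 34 held it in FLOX and 23 of 27 in MCT1-KO, with 94 and 692 UMIs, 224 and 2631 CPM, and the median cell was at 0 and 1623 CPM. In mature cells 8 of 10 and 8 of 12 held it, with 209 and 201 UMIs, that is 1955 and 1779 CPM. T cells held 59.8 and 1.18 CPM of Ccl17, in 6 of 497 and 2 of 395 cells. The largest single cell carried 21.1% of its UMIs in FLOX and 6.96% in MCT1-KO. With no C1q UMI allowed, which leaves 5 FLOX cells, the ratio was 0.601.

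Further genes on the higher side were picked after their values were seen and stand for no list; of 5 cytokine genes compared 1 was higher, and of 4 chemokine receptor genes none was higher and 1 was lower. S100a4, a calcium-binding protein of motile cells, had 366 and 1523 CPM, with a ratio of 4.17 (3.59 to 4.85), and S100a6 731 and 2422 CPM, 3.31 (2.97 to 3.70). The median cell was at 101 and 320 CPM of S100a4 and at 378 and 580 CPM of S100a6. Among type 1 cells of MCT1-KO, 1 cell with 10 Krt8 UMIs carried 38.7% of the S100a4 and 33.9% of the S100a6 UMIs. Among mature cells of MCT1-KO, 1 cell without Ptprc carried 31.3% of the S100a6 UMIs. Il1b had 279 and 567 UMIs, a ratio of 2.46 (2.12 to 2.85), but fewer MCT1-KO cells held it, 26 of 54 against 30 of 52, and 11 of 27 against 21 of 34 in type 1 cells. The median cell was at 72.4 CPM of Il1b in FLOX and at 0 in MCT1-KO. Nlrp3, the sensor of the inflammasome that activates IL-1 beta, had 13 and 43 UMIs, 4.0 (2.11 to 8.11). Fcgr2b, the inhibitory Fc receptor, had 13 and 47 UMIs, a ratio of 4.37.

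Chaperone genes led the lower side. Hsph1 had 194 UMIs in FLOX and 8 in MCT1-KO, 315 and 15.7 CPM, and was 20.1-fold higher in FLOX (9.98 to 47.1). Hspa1a, the inducible HSP70, had 615 and 42 UMIs, 999 and 82.5 CPM, 12.1-fold higher in FLOX (8.85 to 17.0), and was found in 45 of 52 and 11 of 54 cells. Of 11 heat shock genes compared 9 were at least 2-fold lower in MCT1-KO. Their summed level was 8811 and 4509 CPM in dendritic cells, a ratio of 0.512, and the ratio of the same sum was 0.467 in C1q macrophages, 0.542 in T cells and 0.548 in free RNA. The sum was thus lower in MCT1-KO in each of these cell types and in free RNA.

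The interferon-response list summed to 1095 and 525 CPM, a ratio of 0.479, against 0.811 in C1q macrophages, 0.659 in T cells and 0.634 in free RNA, and within type 1 cells it was 0.445. Of 6 genes compared 3 were at least 2-fold lower, beside 4.8% of all genes. Isg15, a ubiquitin-like modifier, had 62 and 14 UMIs, a ratio of 0.273. Cxcl9, the interferon-gamma induced ligand of CXCR3, had 362 and 49.1 CPM, 0.136 (0.086 to 0.205), in 26 of 52 and 10 of 54 cells, and 1 FLOX cell carried 43.5% of its UMIs. The same cell carried 38.7% of the FLOX UMIs of Isg15, 46.7% of Oasl1 and 35.4% of Gm4951. Without it, an alternative added after seeing the data, the ratio was 0.437 for Isg15, 0.235 for Cxcl9, 0.111 for Oasl1 and 0.268 for Gm4951, and 0.576 for the list sum. Without the upper limit on genes per cell the Cxcl9 ratio was 0.595. The 10 genes with the lowest ratio were Hsph1, Oasl1, Hspa1a, Hspa1b, Cxcl9, Aff3, Phf11a, Gm4951 and Ifi27l2a, together with the subtype marker Fscn1.

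Type 1 genes split. Irf8 had 674 and 214 UMIs, 1095 and 420 CPM, a ratio of 0.384 (0.328 to 0.448), was held by 47 and 36 cells, and stood at 0.478 within type 1 cells and 0.500 in free RNA. Naaa had 612 and 236 UMIs, 0.466 (0.400 to 0.543), but with no C1q UMI allowed, which leaves 5 FLOX cells, its ratio was 2.83. Ppt1, a lysosomal thioesterase, had 389 and 115 (0.357). Of 13 genes of the list 3 were at least 2-fold lower and none was that much higher, and the list sum was at 0.559, or 0.682 within type 1 cells. Wdfy4, at 0.865 (0.718 to 1.04), and Batf3, at 0.679 (0.452 to 1.01), had intervals that reached 1. Zbtb46 at 1.15 (0.717 to 1.84) did as well.

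The maturation genes summed to 3393 CPM in FLOX and 3841 in MCT1-KO dendritic cells, a ratio of 1.13 (1.06 to 1.20), with ratios of 3.63 in type 1 cells and 0.572 in mature cells. Ccl17 alone supplied 464 of the 2088 FLOX and 1078 of the 1955 MCT1-KO UMIs. Without it, an alternative added after seeing the data, the ratio was 0.653 (0.601 to 0.709), that is in the other direction, with 1.36 in type 1 cells and 0.478 in mature cells. Ptprc was held by 8 of 10 mature cells in FLOX and 8 of 12 in MCT1-KO. The deepest mature cells of MCT1-KO, with 16406, 17504 and 18781 UMIs, had no Ptprc and held 75, 5 and 4 Krt8 UMIs. They weigh most in the summed mature values, and no mature ratio of this list is given without them. Of 16 genes compared 5 were at least 2-fold lower (31.25%, beside 4.8% of all genes), and 1, Ccl17, was higher. The 5 were Cacnb3, a calcium channel subunit (51 and 12 UMIs, 0.285), Tmem123 (105 and 31, 0.357), Zmynd15 (85 and 26, 0.370), Serpinb6b, a serpin (238 and 75, 0.381) and Serpinb9, the granzyme B inhibitor (140 and 50, 0.432). Serpinb9 was at 1.13 in type 1 cells alone.

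Presentation and costimulation genes are given by their counts, beside 3.71% higher and 4.8% lower over all genes. Of 12 class II genes 1 was at least 2-fold higher and 2 were lower, and the list summed to 11034 and 8851 CPM (0.802). H2-Eb1 was at 0.793, and Cd86 at 1.02 (0.837 to 1.24). Of 8 costimulatory genes 1 was lower, which was Cd274, at 127 and 47 UMIs and a ratio of 0.447 (0.313 to 0.630), and it was at 0.797 in type 1 cells alone. Of 17 class I genes 2 were lower, among them Psmb9, with 468 and 172 UMIs (0.444). None of 9 lactate and glycolysis genes was 2-fold higher or lower, and their sum had a ratio of 0.786.

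**Figure D5:**
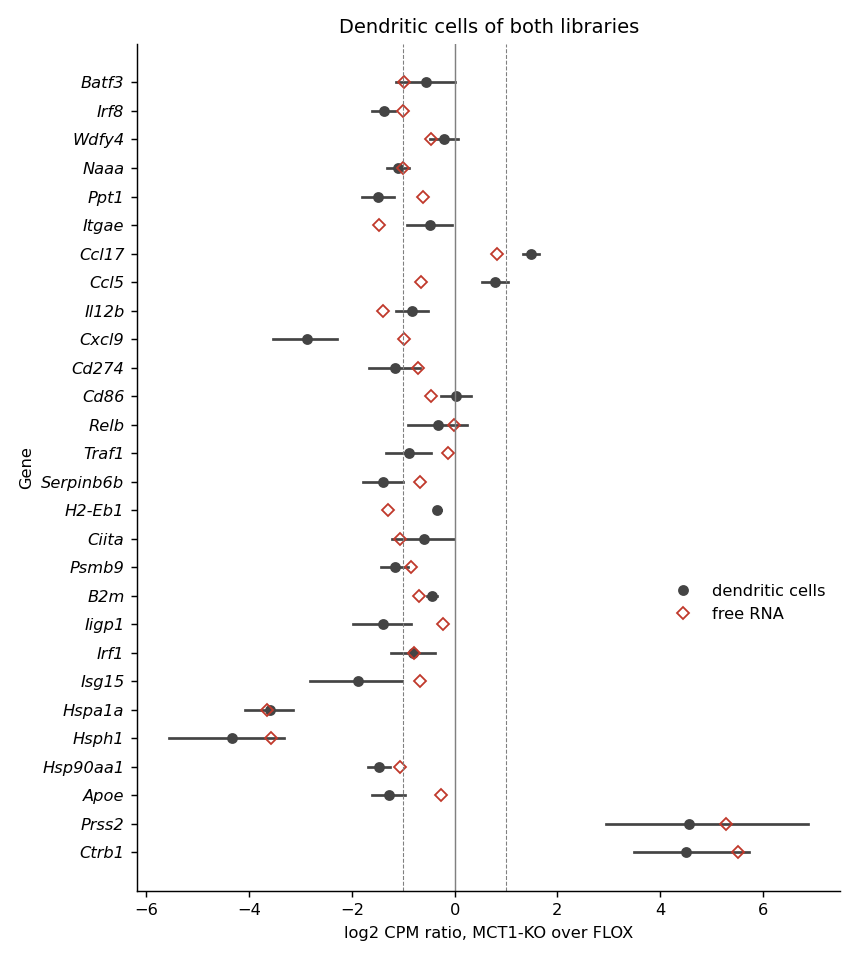
Log2 CPM ratio of MCT1-KO over FLOX (x axis) for 28 genes (y axis) in summed dendritic cells, with 95% counting intervals, beside the same ratio in free RNA (open diamonds); dashed lines mark 2-fold. Prss2 and Ctrb1 lie furthest right in both, Hspa1a and Hsph1 furthest left in both, and Ccl17 and Cxcl9 lie further from 0 in dendritic cells than in free RNA.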

How the data were processed

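Unsorted live cells of tumors from 1 FLOX and 1 MCT1-KO library were profiled. Per the methods, the authors used Fastp for trimming and SeekOneTools for alignment and UMI counting. What they deposited is the unnormalized count of UMIs for each of 32285 mouse Ensembl genes in each barcode. The labels name a SeekOne MM kit, the methods 10x Chromium or SeekOne DD. The submitters' processing notes list Seurat 4.0.0 and human GRCh38, so the mouse build behind the counts is not given in the sources used here. No table of cell names was used.

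Barcodes with 500 or more UMIs, 200 to 5000 genes and at most 8% mitochondrial UMIs were kept (8739 and 11689 cells). Doublets were kept, with those of the highest simulated-doublet score left out as an alternative. UMIs were summed over cells in python 3.11.15 with pandas 2.3.3 and numpy 2.4.6. Intervals came from scipy 1.17.1, neighbours for the doublet score from scikit-learn 1.9.0 and the plots from matplotlib 3.10.9. Dendritic cells held 615464 and 509005 UMIs in all. Levels carry exact Poisson, ratios conditional exact and shares Clopper-Pearson intervals at 95%, which cover counting error only. With 1 library per group no test was run and no p-value is given, and "called" means at least 2-fold. Counts under 3 were set to 3 before genes were called or ranked. The ratio intervals and 2-fold calls were tried on simulated Poisson counts, which hold no uneven spread among cells. The rule, subtypes, thinning, doublet score and free RNA step were not tested in this way.

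Comparison cells were C1q macrophages (10 or more C1q UMIs), T cells (2 or more Cd3 UMIs), fibroblast-rule cells (20 or more collagen UMIs) and barcodes of 10 to 100 UMIs for free RNA. Genes named are those of 27 lists (352 genes, of which 345 are in the files), the 15 highest against other kept cells by the lower ratio of both libraries, the 10 highest and lowest between libraries, and the 10 highest of each subtype with at least 50 cells. Members, lists and comparisons were chosen with earlier results of these data known. Alternatives changed the cell filters, the rule, the reference cells, the gene minimum, the fold, the CPM total, free RNA and the weighting of cells. Promoter windows are from RefSeq on GRCm38.p6, matched by symbol. A few genes that the naming rule selects are not reported here.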

Additional observations from a re-analysis of the deposited data

How the results depend on the processing

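No paired analysis was possible because each group has 1 library, and no library could be left out. Of 57 named genes at least 2-fold apart between libraries, 48 to 57 stayed so under each alternative that changed the upper gene limit, doublets, the marker or class II limit, a C1q limit of 9, the CPM total or the weighting of cells. The UMI minimum of 1000 and the other mitochondrial limit left the dendritic cells as they were, and the gene minimum and the fold do not enter a ratio, so these could not change it. The counts were 31 of 55 with no C1q UMI allowed, 40 of 57 without cells lacking Ptprc or rich in keratin and collagen, 51 of 55 with free RNA subtracted, 39 of 55 in type 1 cells alone and 55 of 57 without the FLOX cell richest in Cxcl9. Of the 25 genes that led dendritic or type 1 cells, 25 stayed 2-fold higher with no upper gene limit, without doublets, under the other marker and class II limits and with up to 9 C1q UMIs, and 19 with no C1q UMI allowed.

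The C1q limit mattered most for FLOX, where it left 5 cells. With a C1q sum of 0 the shares were 0.0572% in FLOX and 0.257% in MCT1-KO, and type 1 and mature cells were 20% and 60% of FLOX cells. Fewer genes could then be compared, 667 beside 3042. Of these 667, 114 were higher than in other kept cells, and between libraries 106 were higher and 77 lower in MCT1-KO. Of 592 genes 68 were higher in type 1 cells, and of 267 genes 62 were higher in mature cells. The ratio between libraries then changed direction for Tnc (0.708), Ifitm1 (0.808), Ccl17 (0.601), Naaa (2.83) and Iigp1 (1.02). With up to 9 C1q UMIs, an alternative added after seeing the data, the FLOX share was 0.790% and Dcn was at 0.899. Without cells lacking Ptprc or with 10 or more keratin and collagen UMIs, also added, 103 of 446 genes were higher in mature cells, and Tnc (0.786), Dcn (0.786), Krt8 (0.817), Krt18 (0.542) and Atp1b1 (0.314) changed direction. In type 1 cells alone, also added, 48 of 1809 genes were higher and 93 lower in MCT1-KO, and Ifitm1 (0.613), Ctsl (0.877), Krt18 (0.613), Atp1b1 (0.228) and Serpinb9 (1.13) changed direction. The causes of these changes were not tested.

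Other limits moved single counts. A marker sum of 3 gave a MCT1-KO share of 0.334%, thinning to 2000 UMIs 0.267% with 26.3% type 1 cells, and kept cells with Ptprc as denominator 1.42% and 1.59%. Against other cells with Ptprc 219 genes were higher. Genes higher in mature cells numbered 370 of 1988 with no upper gene limit, 95 of 610 with a class II sum of 40, and 72 of 469 at 60 UMIs per gene. Type 1 cells had 171 of 1494 at that minimum. The main run had 170 of 983 and 355 of 3018, so the number of genes compared moved with these counts. Between libraries 401 and 370 of 5899 genes were higher and lower at 20 UMIs per gene. Of 3042 genes, 375 and 403 were at 1.5-fold, and 265 and 204 with free RNA subtracted. With 106 cells and 1 library per group, differences between mice were out of reach. Against other kept cells and between libraries, genes under 50 UMIs were called only in the alternative at 20 UMIs per gene.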
